A study of Ascaris suum with 10 samples.

Results

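A set of 62 genes of the pig roundworm Ascaris suum was chosen, out of 15446 in the deposited table (0.401%). They had RNA in both testis and early embryo, with ovary low against testis and adult body tissues low against both. A gene entered the set when it stood at 10 RPKM or more in both testis and embryo, with the embryo and testis values within 4-fold of each other, an ovary value under 25% of the testis value, and a lower embryo or testis value at least 4 times the highest of female carcass, male carcass, muscle and intestine. RPKM, the unit of the deposited table, divides the reads of a gene by its model length and by the mapped library size. The genes were thus selected on their measured values in 7 columns, and their levels there are a description. Larva is the only column the choice did not use.

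The series profiled polyadenylated RNA in 10 libraries of worms that the labels call a North American wild population. They are second-stage larvae of day 7, embryos incubated for 24 hr (1 cell), 46 hr (1 to 2 cells) and 64 hr (2 to 4 cells), the germinal zones of adult ovary and testis, female and male carcass (muscle, hypodermis, pharynx and neurons), muscle with hypodermis, and intestine. No other part of the ovary or testis was among the libraries, so ovary and testis here mean their germinal zones. No group was treated, and the number of animals behind a library is not stated in the labels. The table has 1 column for the 3 embryo libraries, which is given here as the authors' embryo value, and 1 library behind each other column, so no value has a replicate error and no difference was tested. Read totals are unknown. The summed RPKM of a column was lowest in larva, at 564412, and highest in female carcass, at 821149. The table gives identifiers without gene names, so neither the functions of the genes nor the labelled tissues could be checked against known markers. In whole-tissue RNA, fewer cells of a type and less RNA per cell cannot be told apart.

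As background, the nematode testis makes its RNA in the mitotic and meiotic cells that lead to sperm, and transcription largely ceases before sperm are complete. The early embryo starts with RNA made in the ovary and oocyte and adds RNA transcribed from its own genome. In Ascaris, somatic cells of the cleaving embryo discard part of the genome while germ cells keep it, and the title of the series concerns germline-expressed genes lost in this way. Which of the 62 genes lie in discarded DNA was not analysed here.

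Few genes combined these levels. Of 4540 genes at 10 RPKM or more in testis, 3094 also reached that level in embryo, 2097 of those had embryo and testis within 4-fold, 107 of those had ovary under 25% of testis, and 62 also met the limit in the adult body tissues. Without the ovary limit the set would have had 275 genes, so 213 genes met all else but stood at 25% of testis or more in ovary.

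Among the 62 genes, testis was usually the higher of the pair. The embryo value was above the testis value in 15 genes and the testis value above the embryo value in 47. The median level was 26.65 RPKM in embryo (range 10.1 to 276.8) and 43.7 RPKM in testis (range 11.2 to 161.5), and the median embryo to testis ratio was 0.621. Embryo and testis lay within 2-fold of each other in 36 genes, and embryo was under 50% of testis in 23. No gene of the set had its highest value of the 8 columns outside these 2. Larva was the only other column that the limits left free to be highest. For comparison, the median embryo to testis ratio was 3.8 over all genes with testis signal. It was 2.29 in the 3094 genes that met both the testis and embryo minimums, and 1.14 in the 213 that failed only the ovary limit. The ovary limit is set against testis and so favours a high testis value. Part of the lean to testis may therefore be built in.

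The most abundant genes of the set were ASG02816 and ASG05420, ranked by the geometric mean of embryo and testis. ASG02816 stood at 46 RPKM in larva, 262.5 in embryo, 32.4 in ovary and 156.8 in testis, with female carcass at 15.6, male carcass at 6.9, muscle at 5.4 and intestine at 0.7. Its larva and ovary values were each far below both embryo and testis, and its carcass values were the next highest. ASG05420 stood at 9.5 RPKM in larva, 276.8 in embryo, 19.7 in ovary and 81 in testis, with female carcass at 11.8, male carcass at 1.4, muscle at 0.4 and intestine at 0.5. It leaned to embryo, with an embryo to testis ratio of 3.42. At the low end, ASG14340 had 11.3 RPKM in embryo and 12.1 in testis and ASG11484 had 10.1 in embryo and 13.8 in testis.

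**Figure D1:**
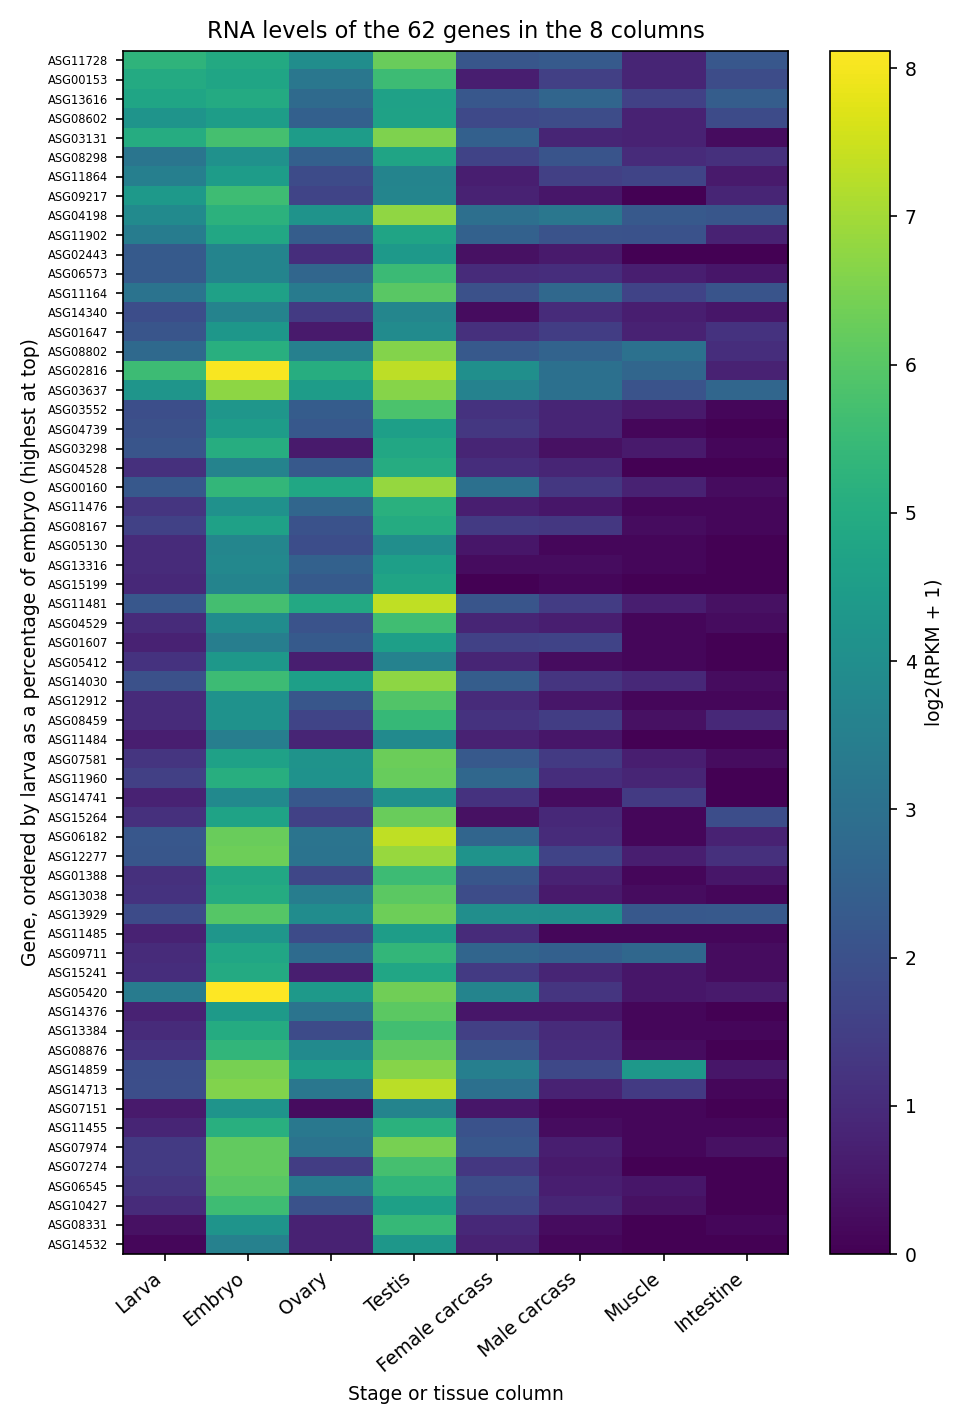
RNA levels of the 62 genes as log2(RPKM + 1) in the 8 columns, 1 row per gene, ordered by larva as a percentage of embryo. Embryo and testis are the bright columns in nearly every row, and ovary is intermediate. The top row is ASG11728, with the highest larva percentage of embryo. The highest larva value, 46 RPKM in ASG02816, lies further down, at 17.5% of embryo.

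The balance of embryo and testis varied across the whole range that the choice allowed. The highest embryo to testis ratio was 3.93 in ASG09217, with 19.9 RPKM in larva, 47.2 in embryo, 2.2 in ovary and 12 in testis. The lowest were 0.26 in ASG06573, with 11.7 RPKM in embryo and 45 in testis, and 0.279 in ASG12912, with 16.6 in embryo and 59.5 in testis. ASG09217 had a higher value in larva than in testis, whereas ASG12912 stood at 1 RPKM in larva.

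Ovary was low against testis, as the choice required, with a value above 0 in every gene. The median ovary level of the 62 genes was 4.6 RPKM (range 0.2 to 32.4), against 7.3 RPKM over all genes. In ovary, 8 of the 62 were under 1 RPKM and none was listed at 0, whereas 1053 of all 15446 genes were listed at 0. The other 54, or 87.1%, stood at 1 RPKM or more, against 79.1% of all genes. As a percentage of testis, ovary had a median of 14.8% and a range of 1.67% to 24.7%, and 41 of the genes stood above 10%. Both columns were used in the choice, and the percentage moves with the scale of each whole column. With columns rescaled, the same 62 genes had a median of 5.12% by the median of ratios, 9.84% by the upper quartile and 20.04% by equal sums.

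Genes led by testis were set beside these values. There were 821 genes with a testis level of at least 50 RPKM and no other column above 20% of it. Their median ovary level was 3.60% of testis (quartiles 2.81% and 4.74%). None of them can belong to the 62, because their embryo value is too low. They were themselves chosen with ovary at 20% of testis or less, so both medians are descriptions of chosen genes. Above 4.74% stood 87.1% of the 62 genes, and so did 90.7% of all genes with testis signal. What part of the ovary values comes with testis-type RNA was not tested.

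The extremes show the spread in ovary. ASG08331 had 0.3 RPKM in larva, 17.3 in embryo, 0.7 in ovary and 42 in testis. ASG07151 had 0.5 RPKM in larva, 17.3 in embryo, 0.2 in ovary and 11.6 in testis. Both had under 1 RPKM in ovary, at 1.67% and 1.72% of testis. ASG13616 had 6 RPKM in ovary and 24.3 in testis, and ASG00160 had 27.5 RPKM in ovary and 112.3 in testis. The ovary value of ASG00160 was above the median embryo level of the set, 26.65 RPKM, and it met the ovary limit because its testis value was high.

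Embryo exceeded ovary in all 62 genes, which the ovary limit and the 4-fold balance together require of any member. The median ratio of embryo to ovary was 4.85 (range 1.40 to 86.5). On the log2(RPKM + 1) scale the embryo was higher than ovary by 2 or more, which is 4-fold on that scale, in 33 of the 62. The background was 9.93% of all genes and 16% of the 8033 genes that reached 10 RPKM in embryo, called embryo-expressed genes from here on, but the limits on embryo and ovary push the set that way and nothing is read from the excess.

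**Figure D2:**
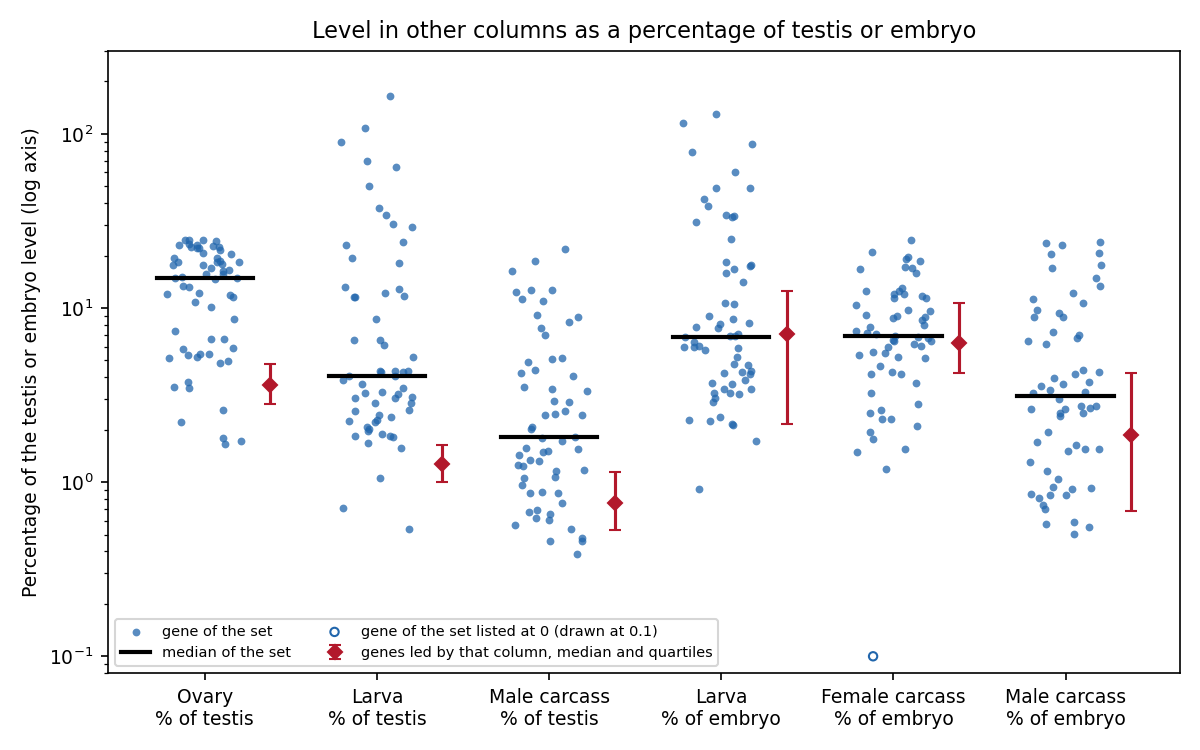
Level of each of the 62 genes (points, with the median as a bar) in another column as a percentage of its testis or embryo level, on a log axis, beside the median and quartiles of genes led by testis (821) or by embryo (194). The ovary percentages of testis have medians of 14.8% in the 62 genes and 3.60% in testis-led genes, and the larva and female carcass percentages of embryo have medians of 6.82% and 6.86%, near those of embryo-led genes.

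The larva library played no part in the choice, and most of these genes had low values in it. The median was 1.95 RPKM in larva, against 26.65 RPKM in embryo, and the median larva percentage of embryo was 6.82%. On the log2(RPKM + 1) scale 48 of the 62 genes (77.4%) were lower in larva than in embryo by 2 or more, and 0 were higher by that much. The background was 11.7% lower and 8.81% higher over all genes, and 19.4% lower and 1.85% higher over the embryo-expressed genes. The median difference of larva minus embryo was -3.11 in the set, against -0.25 over all genes and -0.75 over the embryo-expressed genes. The embryo value of each difference was used in the choice, through its minimum and its limit against the body tissues, so part of a low larva value against embryo may be built in, and nothing is called particular to the set from it.

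Detection in larva at 1 RPKM was near the share over all genes and below the share over embryo-expressed genes. At 1 RPKM or more there were 52 of the 62 genes, or 83.9%, against 81.2% of all genes and 97.8% of embryo-expressed genes. At 5 RPKM or more there were 15, or 24.2%, against 58.9% of all genes and 86.3% of embryo-expressed genes. The larva value was under 10% of embryo in 40 genes, or 64.5%, against 8.98% of all genes with embryo signal and 9.66% of embryo-expressed genes.

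On the log2(RPKM + 1) scale, 2 genes with high embryo levels lay furthest below embryo in larva. ASG07274 stood at 1.6 RPKM in larva, 71.6 in embryo, 1.8 in ovary, 52.1 in testis, 1.5 in female carcass and 0.5 in male carcass, and was listed at 0 in muscle and intestine. ASG07974 stood at 1.6 RPKM in larva, 70.2 in embryo, 7.5 in ovary and 86.5 in testis, with female carcass at 3.6, male carcass at 0.6, muscle at 0.1 and intestine at 0.3. The difference of larva minus embryo was -4.80 and -4.78 on the log2 scale in these 2 genes, and every column other than embryo and testis stood at 7.5 RPKM or less. By the larva percentage of embryo the lowest were others with lower embryo levels, ASG14532 at 0.917% (0.1 RPKM in larva and 10.9 in embryo) and ASG08331 at 1.73% (0.3 RPKM in larva and 17.3 in embryo).

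At the other end, 2 genes stood higher in larva than in embryo. ASG11728 had 38.1 RPKM in larva, 29.2 in embryo, 14.8 in ovary and 76.4 in testis, with female carcass at 3.5, male carcass at 3.9, muscle at 0.8 and intestine at 3.6. ASG00153 had 30.2 RPKM in larva, 26.2 in embryo, 8.3 in ovary and 46.8 in testis, with female carcass at 0.6, male carcass at 1.9, muscle at 0.8 and intestine at 2.7. In both, larva and embryo differed by less than the 4-fold used for a call, and testis was the highest column. Larva exceeded testis in 2 other genes, ASG09217 and ASG13616. ASG13616 had 26.1 RPKM in larva and 24.3 in testis.

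**Figure D3:**
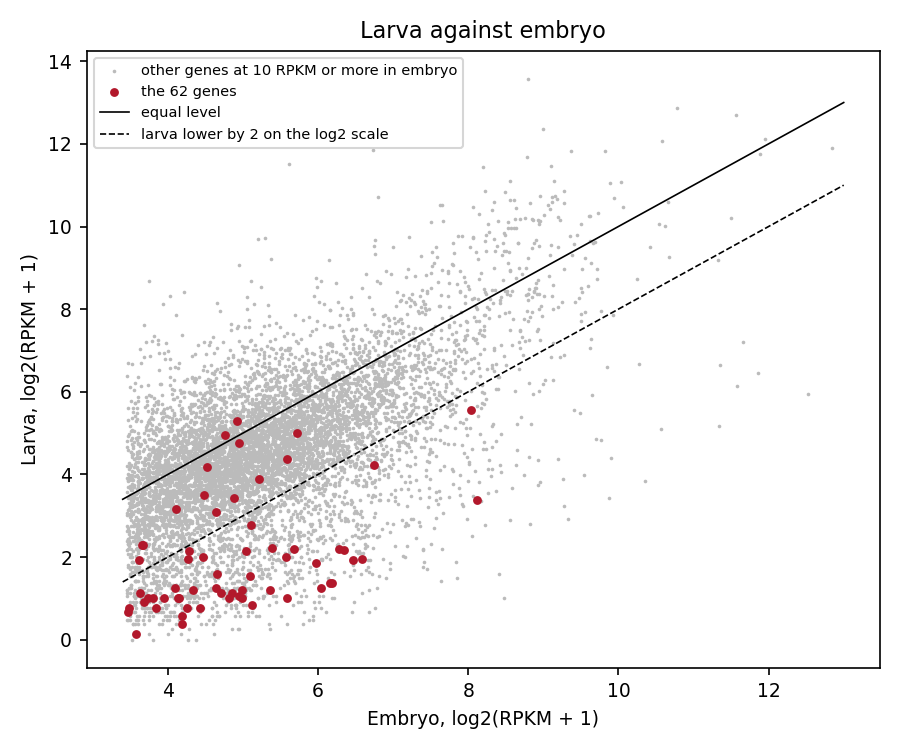
Larva against embryo as log2(RPKM + 1), with the 62 genes in red over the other embryo-expressed genes in grey. The red points lie mostly below the dashed line that marks a larva value lower by 2, with 48 of 62 on or under it, while 19.4% of embryo-expressed genes are.

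The 14 genes that were not lower in larva by 2 or more also had higher values in several adult body columns than the 48 that were. Their median was 2.3 RPKM in male carcass, against 0.8 RPKM for the 48, and 0.8 against 0.2 RPKM in muscle and 1 against 0.1 RPKM in intestine. In female carcass the medians were closer, at 2.3 and 1.75 RPKM. Their median embryo level was 25.1 RPKM, against 27.5 RPKM for the 48, and their median testis level was 25.9 RPKM, against 47.2 RPKM. The 14 were split off by measured values, so these medians are a description. The muscle and intestine medians were at or below 1 RPKM, and the same split was not made over other genes.

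Across the 62 genes, larva values ranked most like intestine (Spearman's rho 0.68), male carcass (rho 0.65) and muscle (rho 0.59), followed by embryo (rho 0.48), ovary (rho 0.46), female carcass (rho 0.43) and testis (rho 0.34). Over all genes, larva had a rho of 0.77 with ovary, 0.70 with embryo, 0.53 to 0.55 with the 4 body columns and 0.42 with testis. Across the 3094 genes that met both the testis and embryo minimums, larva had a rho of 0.67 with intestine, 0.65 with male carcass and 0.62 with muscle. These were close to the values in the 62. The rho there was 0.66 with ovary, 0.65 with embryo, 0.62 with female carcass and 0.26 with testis. Genes are not independent replicates, and many of the adult values are below 1 RPKM. The limits of the choice shape every rho among the other 7 columns, and they restrict the partner column of each larva rho.

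Other genes of the series also had signal in larva together with ovary or testis. The 170 genes led by larva had a median ovary level of 9.78% of larva, and the 821 led by testis a median larva level of 1.27% of testis. The part of these shared signals in the larva values was not tested.

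Similar gene sets put the larva values in context, although no difference between sets was tested. Of 2938 embryo-expressed genes at least 4 times the highest adult body value, with no condition on testis or ovary, 32.0% were lower in larva by 2 or more. The share was 43.2% for the 213 genes with the same embryo and testis pattern but 25% of testis or more in ovary. It was 50.2% for 816 embryo genes whose ovary and testis values were each under 25% of embryo, under the same limit in body tissues. In the 62 genes it was 77.4%, as given above. With whole columns rescaled by the upper quartile or by a median of ratios, 43 and 36 of the 62 genes (69.4% and 58.1%) were lower by 2 or more. The share was 7.10% and 6.03% of all genes, and 13.1% and 11.4% of the embryo-expressed genes, chosen on the deposited values.

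Adult body tissues held traces of most of the 62 genes, and female carcass held the most. At 1 RPKM or more, female carcass had 44 of the genes, male carcass 31, muscle 14 and intestine 13. These are 71.0%, 50%, 22.6% and 21.0% of the 62, against 74.9%, 75.6%, 64.2% and 55.8% of all genes in the same order. By median, female carcass held 1.95 RPKM, male carcass 0.95, muscle 0.4 and intestine 0.2. Low shares are built in, because the choice caps all 4 columns alike, whereas the order among the 4 was left free.

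Female carcass was the highest of the 4 body columns in 39 of the 62 genes (62.9%), male carcass in 13 and muscle or intestine in 8, with 2 ties. Over all genes female carcass was highest in 30.7%, male carcass in 27.2%, intestine in 22.3% and muscle in 14.6%. Female carcass was highest in 39.9% of embryo-expressed genes. It was highest in 59.3% of the 2938 embryo genes low in body tissues, close to the share in the 62. Female carcass exceeded male carcass in 43 of the 62 genes, or 69.4%, against 47.9% of all genes and 58.9% of embryo-expressed genes. With the 3 rescalings of whole columns it did so in 40 to 42 of the same genes. Of the 2938 embryo genes low in body tissues, 69.3% stood higher in female than in male carcass, close to the share in the 62.

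The excess in female carcass was small on the log2(RPKM + 1) scale, with a median difference of female minus male carcass of 0.47. Female carcass was higher by 2 or more in 3 genes and male carcass in 0, with backgrounds of 2.40% and 3.59% of all genes. The 3 were ASG12277, ASG05420 and ASG14713, named after their values were seen. ASG12277 stood at 3.5 RPKM in larva, 80.1 in embryo, 7.6 in ovary and 115.1 in testis, with female carcass at 16.9, male carcass at 2.1, muscle at 0.6 and intestine at 1.2. In ASG14713 female carcass held 7 RPKM and male carcass 0.7.

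The order of the carcasses was not the same in all gene sets, and the difference between sets was not tested. Female carcass was above male carcass in 75.7% of the 816 embryo genes low in ovary and testis and in 73.2% of the 213 genes with ovary RNA. In contrast, it was above male carcass in 15.8% of 1260 testis genes whose embryo and ovary values were each under 25% of testis. The 62 genes, with 69.4%, were nearer to the sets that hold embryo RNA.

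**Figure D4:**
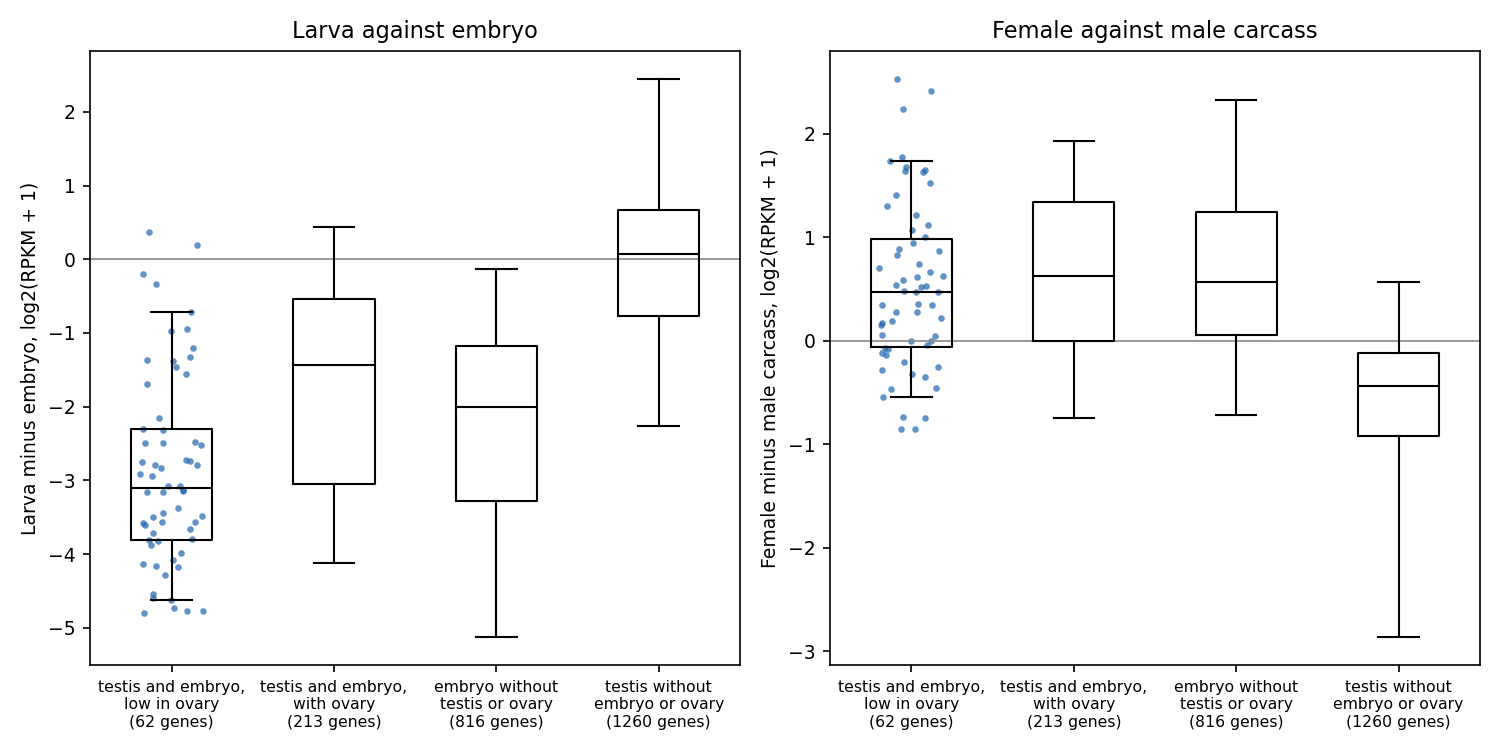
Differences of larva minus embryo (left) and female minus male carcass (right) on the log2(RPKM + 1) scale for the 62 genes and 3 gene sets of similar pattern (without means under 25% of embryo or of testis). Boxes span the quartiles with the median as a line, whiskers span the middle 90% of genes, and points are the 62 genes, whose medians are -3.11 and 0.47.

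Female carcass ranked more like embryo, testis and ovary than male carcass did, as a description over genes that the same limits chose. Across the 62 genes Spearman's rho was 0.76 between embryo and female carcass and 0.38 between embryo and male carcass, and it was 0.71 between testis and female carcass and 0.45 between testis and male carcass. With ovary the rho was 0.72 for female carcass and 0.53 for male carcass. Over all genes the rho was 0.61 and 0.50 for embryo, 0.32 and 0.35 for testis, and 0.62 and 0.56 for ovary. Female carcass is first in each pair. As a percentage of embryo, the 62 genes had a median of 6.86% in female carcass and 3.12% in male carcass. The 194 genes led by embryo, by the same limits of 50 RPKM and 20%, stood at a median of 6.29% in female carcass and 1.87% in male carcass. As a percentage of testis, the 62 genes had a median of 4.62% in female carcass and 1.81% in male carcass. The testis-led genes had 0.136% in female carcass and 0.755% in male carcass. The part of embryo-type or testis-type RNA in the carcass values was not tested.

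Single body columns stood out in a few genes. ASG14859 had the highest body value of the set, 19.2 RPKM in muscle, with 2.8 in larva, 87.4 in embryo, 22.4 in ovary, 98.9 in testis, 10.3 in female carcass, 2.4 in male carcass and 0.4 in intestine. Its muscle value exceeded both carcass values, although the labels list muscle among the carcass tissues. At the low end, ASG15199 had 11.8 RPKM in embryo and 25.9 in testis and no more than 0.1 RPKM in any body column, and ASG13316 had 12.9 RPKM in embryo and 22.9 in testis and no more than 0.2. All 4 body columns were under 1 RPKM in 14 genes, and 15 genes had a body value of 5 RPKM or more. A body value of 1 RPKM or more was found in the other 48, against 12931 of all 15446 genes. One of 5 RPKM or more was found in 9304 of all genes. Low body values are built in, because the choice caps these columns.

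The values nearest to each limit, inside and outside, were as follows. At the embryo minimum, ASG11484 was inside with 10.1 RPKM and ASG13239 outside with 9.9. At the testis minimum, ASG05412 was inside with 11.2 RPKM and ASG10596 outside with 9.4. For the balance, ASG09217 was inside with embryo 3.93-fold above testis, and ASG14236 was outside in the opposite direction, with testis 4.05-fold above embryo. For ovary, ASG13616 was inside at 24.7% of testis and ASG03162 outside at 25%. For body tissues, ASG13929 was inside at 4.05 times the highest body value and ASG08830 outside at 3.81 times.

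Membership depended strongly on how the columns were scaled against each other. With each column divided by its median ratio to the geometric mean profile, taken over genes with no value of 0, 40 genes met the limits, and 7 of them were among the 62. That scaling moved the median embryo to testis ratio of the 62 genes to 0.136, against 0.621 as deposited, so most lay outside the 4-fold balance. With scaling by the upper quartile 33 genes met the limits, 20 of them among the 62, and with columns scaled to an equal sum 73 did, 42 of them among the 62.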

How the data were processed

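Per the submitters' processing notes, TopHat and Cufflinks were used. Their versions, the genome build, the annotation, gene lengths, strandedness and read totals are not stated. The authors deposited RPKM values to 1 decimal, and because the RPKM of 1 read differs with gene length and values are rounded, whole reads were not recovered and depth is unknown. Columns were matched to samples by title. The embryo column stands for 3 libraries, and whether it is a mean or a pool is not stated.

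The genes and limits were chosen with earlier results of these data known. The limits were applied to the deposited values with Python 3.11.15 and pandas 2.3.3, and the code was tested on simulated data. A call was a difference of at least 2 on log2(RPKM + 1), which understates changes of low genes, and detection was 1 RPKM or more. Identifiers were named by rank, the 2 at each end of 5 orderings plus the nearest gene on each side of each limit. Named outside this rule were ASG14532 for its larva percentage of embryo and ASG14713 for its carcass difference. So were ASG04528, ASG04529 and ASG11485, for their consecutive identifiers. Planned marker lists could not be matched without gene names. Alternatives were other limits, pseudocounts of 0.1 and 5, leaving out each body column, and 3 rescalings.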

Additional observations from a re-analysis of the deposited data

How the results depend on the processing

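Of 140 recomputed values, 102 kept within 1.5 times (the number of genes and medians) or within the exact 95% binomial interval of the share as reported, and 38 did not. That interval served only as a yardstick for change. In every alternative 0 genes were higher in larva by the threshold, and leaving out any body column gave 62 to 68 genes with no value outside these limits. The number of genes was 40 with scaling by the median of ratios, 33 by the upper quartile, 38 with a minimum of 20 RPKM, 36 with embryo and testis within 2-fold, 95 within 8-fold, and 27 or 131 with ovary under 12.5% or 50% of testis. The share lower in larva was 50% with scaling by the median of ratios, 58.1% with that scaling of the same 62 genes (an alternative added after the data were seen), 63.6% with the upper quartile, 50% with a pseudocount of 5, 88.7% and 53.2% at log2 thresholds of 1 and 3, 61.4% with body tissues limited at 2 times, and 92.6% or 59.5% with ovary under 12.5% or 50% of testis. The median larva percentage of embryo was 20.4% with the median of ratios, 11.4% with the upper quartile and 14.2% with ovary under 50% of testis, and the median ovary percentage of testis was 5.44% or 25.8% with ovary under 12.5% or 50%. For the same 62 genes the median ovary percentage of testis was 5.12% with the median of ratios, 9.84% with the upper quartile and 20.04% with equal sums. Detection in larva was 96.8% and 24.2% at 0.5 and 5 RPKM, and 72.3% and 94.7% with minimums of 5 and 20 RPKM. Detection in female carcass was 87.1% and 19.4% at 0.5 and 5 RPKM, 89.5% with a minimum of 20 RPKM, 83.2% with ovary under 50% of testis, 52.1% with equal sums and 87.5% with the median of ratios. Detection in male carcass was 74.2% and 11.3% at 0.5 and 5 RPKM, 63.2% with a minimum of 20 RPKM, 30.2% with body tissues limited at 8 times, 32.9% with equal sums, and 29.6% or 64.9% with ovary under 12.5% or 50%. The cause of these shifts was not tested, except that other limits change which genes enter. The median larva minus embryo difference of all genes was -0.25 as deposited and 0.10 with the median of ratios, against -3.11 and -2.28 in the 62 genes. No paired analysis was possible because each stage or tissue has 1 column and no test was made. Unknown depth limits every value near 0, and leaving out an embryo library was not possible because they share 1 column.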

Other observations

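Among the 62 genes, 2 pairs carry consecutive identifiers, which were noticed after the values were seen. ASG04528 and ASG04529 had 1.2 and 1 RPKM in larva, 11.4 and 14.4 in embryo, 3.8 and 3.2 in ovary and 31.3 and 48.1 in testis. ASG11484 and ASG11485 had 0.6 and 0.7 RPKM in larva, 10.1 and 18.1 in embryo, 0.8 and 2.6 in ovary and 13.8 and 21.8 in testis. Whether consecutive identifiers mark neighbouring or related genes is not stated.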
